A study of Schizosaccharomyces pombe with 40 samples.

Results

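In the wild-type (wt) meiotic time course, the transcripts of chromosome pairing and recombination fell between 4 h and 5 h after induction. Those of the spore wall rose, as did those of most Cdc2 and APC/C regulators. Fewer of these regulators rose when libraries were scaled by total counts. Kinetochore and cohesion genes fell for the most part, and spindle and checkpoint genes went both ways. The comparison covers 4 of 40 libraries of poly(A)+ RNA from fission yeast, 2 replicates at 5 h and 2 replicates at 4 h. The cells were haploid, of mating type h-, and carried leu1-32 and pat1-L95G, an allele that lets the inhibitor 3-MB-PP1 block the Pat1 kinase. Cells were starved of nitrogen overnight so that they arrested in G1, and then received leucine, ammonium and the inhibitor at 25 µM; aliquots were taken hourly. The other libraries are 8 further wt stages, from vegetative growth to 8 h, and the same 10 stages of snR107kloopmut (kloopmut below), a strain of the same background with mutated bases in the snoRNA snR107. The counts per feature do not check that mutation. Induced haploid cells enter meiosis without a homologous chromosome, and the labels do not say whether aliquots with the same replicate number came from 1 culture. The p-values and SE rest on the spread between replicates within a stage and strain, pooled over all 20 groups of the 40 libraries. They are therefore not the spread of the 4 h and 5 h replicates alone.

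Pat1 holds fission yeast in vegetative growth by inactivating the RNA-binding protein Mei2. When Pat1 is blocked, cells replicate their DNA and enter a long prophase, in which the nucleus moves back and forth behind clustered telomeres (the horsetail stage) and recombination takes place on thread-like linear elements. The forkhead factor Mei4 then activates the genes of the middle phase, which carry cells through both divisions, and forespore membranes and spore walls are built around the nuclei. The early genes are in large part controlled by the MBF complex, which binds the MluI box (ACGCGT), and the middle genes by Mei4, which binds a sequence called FLEX with the core GTAAACA or GTAAATA.

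The 5 h libraries held 22889781 and 29161612 counts, and the 4 h libraries 25466640 and 23337829. Of 12019 features tested, 3395 were higher at 5 h (28.2%) and 3335 were lower (27.7%), by edgeR's quasi-likelihood test at an adjusted p below 0.05. Among 5075 protein-coding features, 1669 were higher (32.9%) and 1782 lower (35.1%), so a list of genes stands out only where its own share is far from these. Changes of at least 2-fold were called for 542 coding features higher and 710 lower, and changes of at least 4-fold for 87 higher and 59 lower. The median log2 fold change was -0.01 over all features and -0.05 over the coding ones. It depends on the scaling: few features took a larger share of the counts at 5 h, where the 100 most abundant held 34.1% and 35.0%, against 24.0% and 23.0% at 4 h. The spore protein gene isp3+ alone held 4.76% and 5.00% of counts at 5 h, against 2.65% and 2.55% at 4 h. When libraries were scaled by total counts instead of TMM, the median of all features moved to -0.53, with 1370 higher and 5837 lower, so that 19.0% of the calls were rises, against 50.4% with TMM. All changes below are relative to the TMM scaling, and lists whose median changes sign by total counts are named. Of the rises named below, those of ark1+, bgs4+, cut11+, duo1+, hsp104+, kms2+, mcm6+, mfr1+, mik1+, mis6+, plo1+ and rad54+ did not pass by total counts. In such bulk RNA, fewer cells of a type and less RNA per cell cannot be told apart.

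Overlapping genes limit which feature a change belongs to. Over 133 lncRNA features that lie wholly inside a coding feature on the opposite strand, the count per base was 1.41 times that of the coding feature at the median (quartiles 1.17 and 1.73), and it was at least 0.5 times as high in 130 of them. Reads from a gene and its antisense partner therefore could not be separated. Of the coding features tested, 2997 (59.0%) shared over 50% of their length with another feature, lncRNAs included. Partners among coding genes are named where the change of a gene could be that of its partner.

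**Figure D1:**
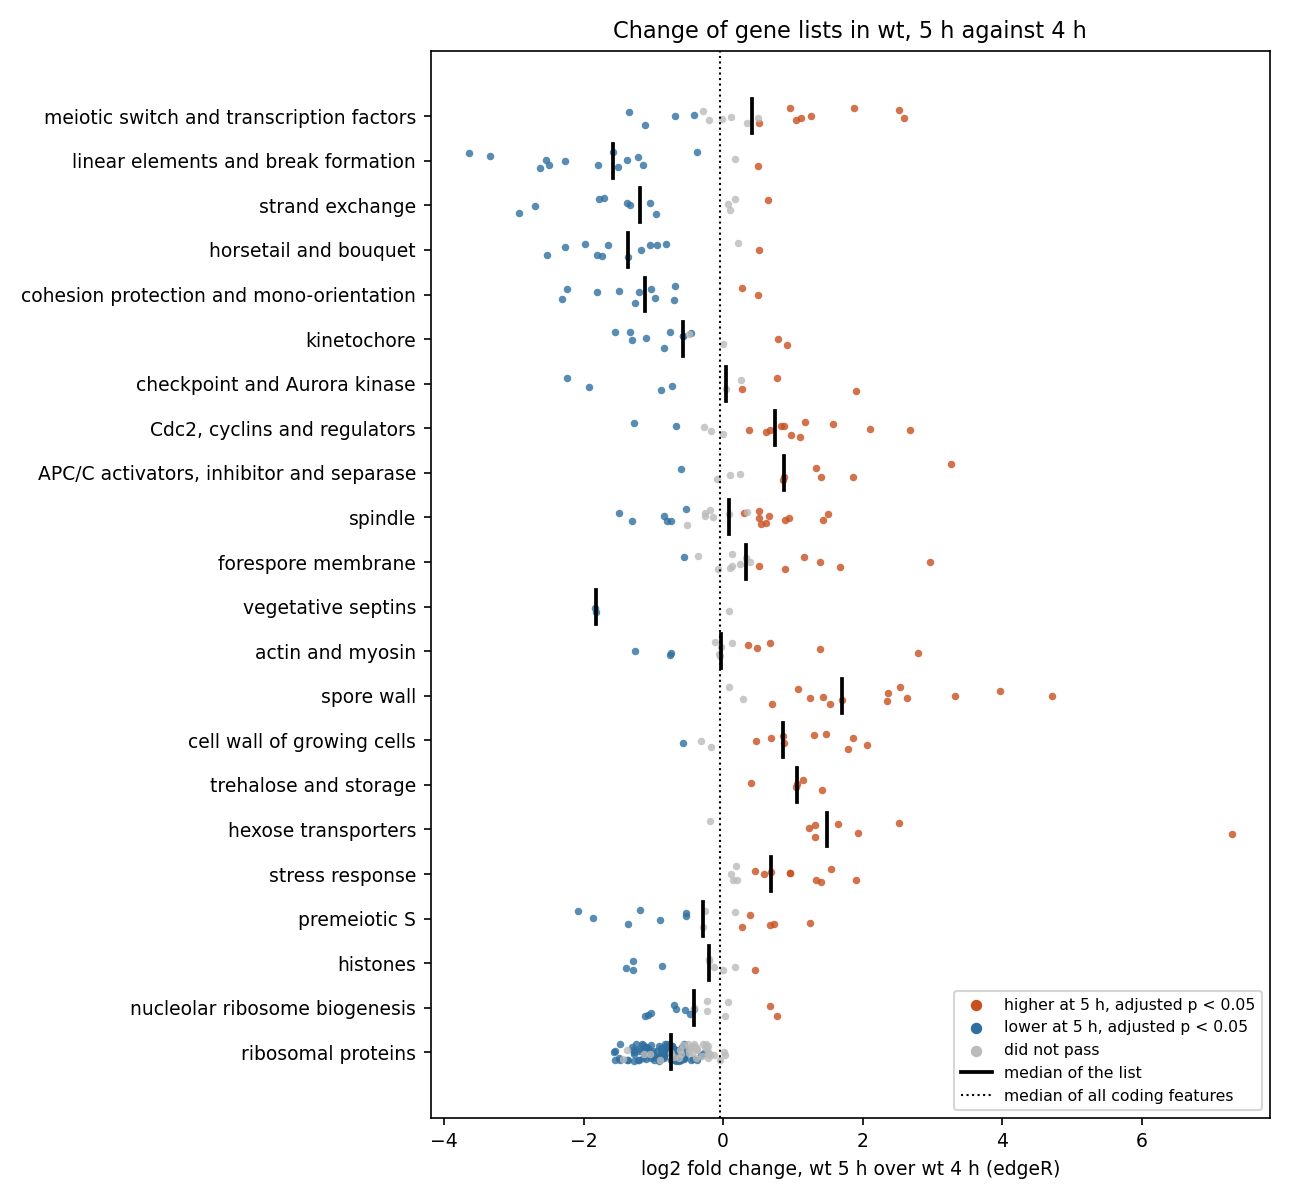
Log2 fold change of each gene (points) in 22 lists, wt 5 h over wt 4 h, with the median of the list (bar) and the median of all coding features (dotted line). The linear element, strand exchange and horsetail lists lie mostly below 0 and the spore wall list mostly above it; the ght6+ point at 7.29 is the largest rise among coding genes.

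Mei4 itself was among the genes that rose. mei4+ had 172 and 170.2 RPKM (reads per length of the feature and size of the library, TMM-scaled) at 5 h, against 44.1 and 49 RPKM at 4 h, a log2 fold change of 1.88 ± 0.15 (SE, n = 2 per stage, edgeR adjusted p = 5e-11) with no overlap of the stages. The bZIP factor gene atf21+ had 476 and 497 RPKM at 5 h, against 82.4 and 78.3 RPKM at 4 h (log2 2.6 ± 0.15). The zinc finger gene rsv1+ was at 12.8 RPKM in both 5 h libraries, against 2.90 and 1.53 RPKM at 4 h (log2 2.52 ± 0.34). cuf2+, which encodes a factor of the middle phase, rose by less (log2 1.04 ± 0.19), and its feature overlaps that of SPCC584.03c. Factors of the preceding phase were split. rep1+, an activator gene of MBF, rose (log2 0.51, less than the shift of 0.53 that total-count scaling brings), while others fell. fkh2+, a forkhead gene whose product acts on some of the same promoters before Mei4, had 20.6 and 17.9 RPKM at 5 h, against 46.2 and 52.0 RPKM at 4 h (log2 -1.35 ± 0.18). The MBF subunit genes res2+ and cdc10+ fell as well (log2 -1.12 ± 0.11 and -0.42 ± 0.11).

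The upstream switch was more even. mei2+ had 276 and 389.9 RPKM at 5 h, against 323 and 354 RPKM at 4 h, so the stages overlapped and no change was detected (log2 -0.02 ± 0.18). ste11+, which encodes the master regulator of sexual differentiation, did not pass the test (log2 -0.20 ± 0.22), nor did the Pat1 inhibitor gene mei3+ (log2 -0.29 ± 0.39). mmi1+, whose product removes meiotic transcripts in growing cells, had 10.6 and 12.9 RPKM at 5 h, against 6.09 and 6.02 RPKM at 4 h (log2 0.96 ± 0.16). pat1+ rose by a log2 fold change of 1.25 ± 0.21. spo5+, an RNA-binding protein gene of the second division, was already past its highest stage: 974 and 884 RPKM at 5 h, against 1409 and 1587 RPKM at 4 h (log2 -0.69 ± 0.19). Of the 18 switch and transcription factor genes tested, 8 were higher, 4 lower and 6 passed neither way, with a median log2 of 0.42 that became -0.10 by total counts.

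The genes of linear elements and of DNA break formation fell together. Of 15 tested, 13 were lower and 1 was higher, with a median log2 fold change of -1.58 (all coding features -0.05). rec8+, which encodes the meiotic cohesin subunit, had 2.51 and 2.01 RPKM at 5 h, against 19.4 and 26.4 RPKM at 4 h, a 10.2-fold lower level (log2 -3.35 ± 0.32, adjusted p = 1.2e-09). hop1+, a linear element gene of the HORMA family, had 9.12 and 8.6 RPKM at 5 h, against 47.4 and 55.9 RPKM at 4 h (log2 -2.54 ± 0.14, adjusted p = 1.4e-14). Neither gene overlaps another coding feature, and the 5 h values of both were below each 4 h value. rec10+, the core component of linear elements, had 5.23 and 3.43 RPKM at 5 h, against 21.9 and 26.7 RPKM at 4 h (log2 -2.50 ± 0.22). mek1+, the kinase gene of the recombination checkpoint, fell by 2.62 ± 0.29, and rec12+, which encodes the enzyme that cuts the DNA (Spo11 in other species), fell by 1.58 ± 0.21, both on the log2 scale. The cohesin subunit gene rec11+ and the linear element genes rec25+, rec27+ and mug20+ fell by between 1.37 and 2.26 (rec27+ shares its feature with tho5+). rec15+ showed the lowest value of the list (3.9 and 3.47 RPKM at 5 h, against 38.2 and 53.8 RPKM at 4 h, log2 -3.64 ± 0.32), but its whole length lies within SPBC1711.15c on the opposite strand, which fell alike (-3.50 ± 0.29). The exceptions were rec7+, with 5.66 and 5.05 RPKM at 5 h, against 5.29 and 4.21 RPKM at 4 h (log2 0.17 ± 0.17, not passed), and rec14+ (log2 0.50 ± 0.12), a gene with a role outside meiosis, whose value was -0.02 by total counts.

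Of the 15 promoters of this list, 10 held an MluI box, against 166 of the 5070 coding promoters scanned (3.27%). The windows below show the box (in capitals) with 30 bases before it, for genes of prophase that fell, and all lie upstream of the annotated gene start and outside any coding feature. The coordinates are those of build ASM294v3, the reference sequence is RefSeq's, and the letters run 5′ to 3′ on the strand of the gene. rec8+, hop1+ and meu13+ each hold a pair of boxes. The rec11+ window lies between rec11+ and the divergent gene cig1+.
rec8 (chrII:2568859-2568924, plus strand): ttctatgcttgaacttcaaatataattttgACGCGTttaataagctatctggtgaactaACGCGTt
hop1 (chrII:3472208-3472273, plus strand): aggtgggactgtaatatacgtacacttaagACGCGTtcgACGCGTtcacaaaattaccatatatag
meu13 (chrI:977585-977650, plus strand): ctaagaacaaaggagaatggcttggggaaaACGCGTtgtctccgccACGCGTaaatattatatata
bqt1 (chrI:3272720-3272785, minus strand): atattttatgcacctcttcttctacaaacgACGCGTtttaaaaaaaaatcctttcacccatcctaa
mcp6 (chrII:430234-430299, minus strand): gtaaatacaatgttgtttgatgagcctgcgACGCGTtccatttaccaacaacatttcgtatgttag
rec11 (chrIII:1227102-1227167, minus strand): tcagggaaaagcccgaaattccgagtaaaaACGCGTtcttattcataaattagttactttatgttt

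Strand exchange genes fell in 8 of 12 cases, with 1 higher and a median log2 of -1.19. meu13+, which encodes the Hop2 homologue that helps homologous strands pair, had 4.28 and 2.44 RPKM at 5 h, against 19.9 and 30.6 RPKM at 4 h (log2 -2.92 ± 0.32, adjusted p = 1e-08). Its partner gene mcp7+ (Mnd1 in other species) fell to 17.9 and 19.6 RPKM at 5 h, against 36.5 and 40.8 RPKM at 4 h (log2 -1.04 ± 0.18). sfr1+ and swi5+, whose products act together on the strand exchange proteins, fell by 2.70 ± 0.17 and 1.33 ± 0.14 on the log2 scale; swi5+ overlaps the kinetochore gene mis12+. dmc1+, a strand exchange gene specific to meiosis, had 79.6 and 59.6 RPKM at 5 h, against 172 and 190.3 RPKM at 4 h. In contrast, rad54+, a recombination gene used also in growing cells, rose to 54.0 and 58.4 RPKM at 5 h, against 37.1 and 35.1 RPKM at 4 h (log2 0.64 ± 0.13).

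The machinery of the horsetail stage fell in 11 of 13 genes, with a median log2 of -1.37. bqt1+, a gene of telomere clustering, had 7.32 and 6.48 RPKM at 5 h, against 35.9 and 43.2 RPKM at 4 h (log2 -2.52 ± 0.23, edgeR adjusted p = 4e-10). Of its length, 46.8% overlaps cfr1+. Its partner bqt2+ had 22.5 and 18.9 RPKM at 5 h, against 38.3 and 41.2 RPKM at 4 h, a change just past the threshold (log2 -0.94 ± 0.40, adjusted p = 0.049) that several other settings did not call. mcp6+, the gene of the meiotic spindle pole protein that organises astral microtubules, fell by 2.26 ± 0.20 on the log2 scale. The telomere genes taz1+ and rap1+ and the envelope gene bqt4+ fell by 1.37 ± 0.14, 1.98 ± 0.22 and 1.81 ± 0.18. Genes of the dynein pathway that pulls the nucleus differed: ssm4+, a dynactin subunit, had 2.98 and 1.76 RPKM at 5 h, against 7.60 and 8.06 RPKM at 4 h, and the cortical anchor num1+ fell by 0.83 ± 0.15. The dynein heavy chain gene dhc1+ had 4.95 and 5.05 RPKM at 5 h, against 4.36 and 4.27 RPKM at 4 h, and did not pass (log2 0.21 ± 0.12). bqt3+, an envelope gene of all cells, rose (log2 0.51 ± 0.08), but not by total counts (-0.01).

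**Figure D2:**
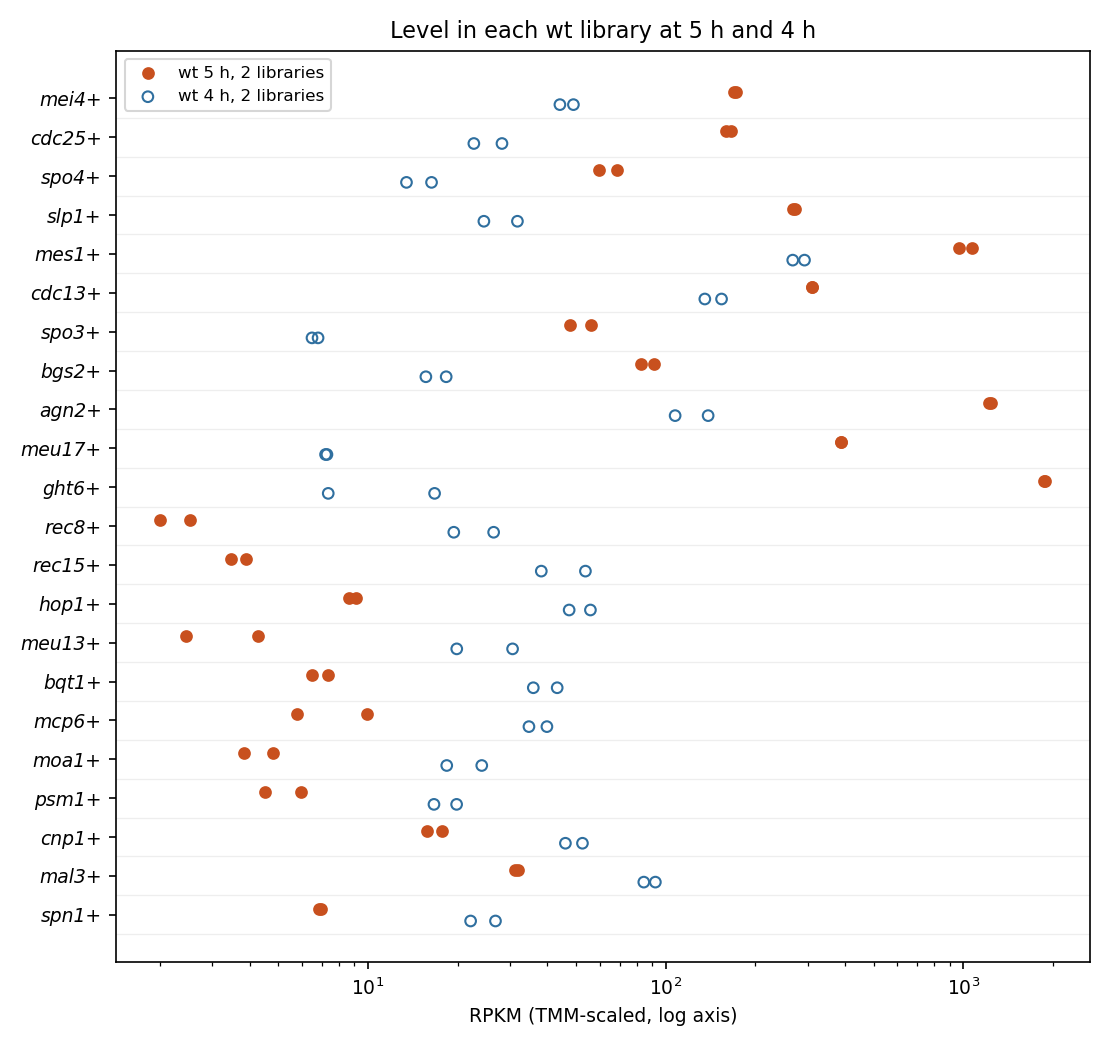
Level of 22 genes in each wt library (RPKM, log axis), 2 libraries at 5 h and 2 at 4 h. The stages do not overlap in any of these genes; mei4+ to ght6+ are higher at 5 h and rec8+ to spn1+ are lower.

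Cohesin and its guardians fell along with rec8+. Of 12 genes tested, 10 were lower and 2 higher, with a median log2 of -1.11. moa1+, which makes sister kinetochores face the same pole in the first division, had 4.78 and 3.81 RPKM at 5 h, against 18.4 and 24.1 RPKM at 4 h (log2 -2.31 ± 0.59, adjusted p = 0.0014). The shared cohesin genes fell too: psm1+ by 1.81 ± 0.15, psm3+ by 1.5 ± 0.16 and psc3+ by 1.27 ± 0.15 on the log2 scale, and pds5+, which maintains cohesion, had 1.56 and 0.713 RPKM at 5 h, against 4.79 and 5.72 RPKM at 4 h. The shugoshin gene sgo1+, which protects centromeric Rec8 until the second division, fell by less (17.8 and 11.3 RPKM at 5 h, against 23.4 and 23.7 RPKM at 4 h, log2 -0.70 ± 0.20), and it overlaps txc1+. The 2 genes that rose were bub1+ (log2 0.50 ± 0.16), a kinase of centromeres, and rad21+, the mitotic counterpart of rec8+, with 11.3 and 10.9 RPKM at 5 h, against 9.49 and 8.92 RPKM at 4 h (log2 0.27 ± 0.12, adjusted p = 0.05). Neither rose by total counts (bub1+ -0.03, rad21+ -0.25), and both calls were lost without replicate 1 or 2 of the 4 h libraries or without replicate 2 of the 5 h libraries (rad21+ also without replicate 1 at 5 h). The sgo1+ call was lost without replicate 2 at 5 h. At 5 h the mitotic rad21+ thus had more RNA per length than rec8+, and at 4 h less.

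Kinetochore genes fell in 9 of 13 cases and rose in 2, with a median log2 of -0.57. cnp1+, the centromeric histone CENP-A, had 15.8 and 17.7 RPKM at 5 h, against 46 and 52.5 RPKM at 4 h (log2 -1.55 ± 0.12, adjusted p = 9.7e-12). mis12+ fell by 1.30 ± 0.13, nuf2+ by 1.11 ± 0.32 and ndc80+ by 0.84 ± 0.14, the last pair being subunits of the complex that grips microtubules. cnp3+, a CENP-C homologue, did not change detectably (log2 -0.00 ± 0.27), and mis6+ and duo1+ rose (0.91 ± 0.19 and 0.78 ± 0.21, duo1+ not without replicate 2 at 4 h). Among spindle checkpoint and Aurora kinase genes the direction was split, with 3 of 9 higher, 4 lower and a median of 0.05 (-0.47 by total counts). The checkpoint genes mad1+, mad2+, mad3+ and bub3+ fell, mad1+ to 1.16 and 0.591 RPKM at 5 h, against 4.05 and 4.06 RPKM at 4 h (log2 -2.23 ± 0.33). The kinase gene bub1+, counted with the cohesin genes above, rose (log2 0.50), though not by total counts. ark1+, the Aurora kinase gene, and nbl1+, a small subunit of its complex, rose: nbl1+ had 99.5 and 66.9 RPKM at 5 h, against 25.1 and 19.4 RPKM at 4 h (log2 1.90 ± 0.26).

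The drivers of the divisions rose. Of 16 genes for Cdc2, cyclins and their regulators, 11 were higher and 2 lower, with a median log2 of 0.75; by total counts 6 were higher and 5 lower, with a median of 0.22. cdc25+, the phosphatase gene that switches Cdc2 on, had 159 and 166 RPKM at 5 h, against 28.2 and 22.7 RPKM at 4 h, which is 6.38-fold higher (log2 2.67 ± 0.13, adjusted p = 9.3e-16). spo4+ and spo6+ encode a kinase and its regulatory subunit needed for the second division: spo4+ had 68.8 and 59.7 RPKM at 5 h, against 16.3 and 13.5 RPKM at 4 h (log2 2.11 ± 0.20), and spo6+ had 66.6 and 56.8 RPKM at 5 h, against 29.0 and 25.7 RPKM at 4 h (log2 1.17 ± 0.19, on a feature shared with lam2+). cdc13+, the main B-type cyclin gene, was at 311 RPKM in both 5 h libraries, against 154 and 135 RPKM at 4 h (log2 1.10 ± 0.13). Cdc2 inhibitors rose beside its activators: wee1+ by 0.98 ± 0.16 and mik1+ by 0.83 ± 0.15 on the log2 scale. The polo kinase gene plo1+ rose by 0.67 ± 0.12, the phosphatase gene clp1+ by 1.57 ± 0.20, and cdc2+ by 0.37 ± 0.10 (-0.16 by total counts). The cdc2+ call was lost without replicate 2 of either stage. Cyclin genes did not all move the same way. The meiotic cyclin gene crs1+ fell to 60.0 and 62.9 RPKM at 5 h, against 148 and 149 RPKM at 4 h (log2 -1.27 ± 0.25, with 37.2% of its length shared with ade9+), and cig1+ fell by 0.68 ± 0.15. rem1+, another meiotic cyclin gene, had 36.1 and 33.0 RPKM at 5 h, against 38.8 and 38.9 RPKM at 4 h, and did not pass (log2 -0.17 ± 0.22).

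Activators of the anaphase-promoting complex (APC/C), its meiotic inhibitor and its substrates rose in 6 of 10 genes and fell in 1, with a median log2 of 0.87. By total counts 5 were higher and 3 lower, with a median of 0.34. slp1+, the Cdc20 homologue that starts anaphase, had 273 and 268 RPKM at 5 h, against 31.8 and 24.5 RPKM at 4 h, which is 9.61-fold higher (log2 3.27 ± 0.14, adjusted p = 1.9e-16). mes1+, whose product restrains the APC/C between the divisions so that a second one can follow, had 967 and 1074 RPKM at 5 h, against 293 and 267 RPKM at 4 h (log2 1.87 ± 0.11, adjusted p = 1e-13). The securin gene cut2+ and the separase gene cut1+ rose by 1.4 ± 0.21 and 0.86 ± 0.11. mfr1+, the activator specific to meiosis, had 21.5 and 19.8 RPKM at 5 h, against 11.7 and 10.8 RPKM at 4 h (log2 0.88 ± 0.23, on a feature shared with tfg2+). srw1+, an activator used in G1, did not pass (log2 -0.09 ± 0.13), nor did the APC/C subunit gene nuc2+ (0.25 ± 0.16).

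Of these promoters, 6 of the 10 of the APC/C list and 8 of the 16 of the Cdc2 list held GTAAACA on either strand, against 844 of all 5070 (16.6%). The core was not confined to genes that rose: 5 of the 15 promoters of the linear element list, which fell, held it. Nor did all strong rises have it, as the promoters of cdc25+ and ght6+ did not. The windows below, with the core in capitals and 30 bases on each side, show it upstream of genes that rose. Capitals reading GTAAACA mark the core on the strand of the gene and TGTTTAC mark it on the opposite strand (build ASM294v3, RefSeq sequence, 5′ to 3′ on the strand of the gene). They include regulators of the divisions, a spindle motor (klp5+) and a pair of spore wall enzymes (gas4+, agn2+).
mes1 (chrI:1498797-1498863, plus strand): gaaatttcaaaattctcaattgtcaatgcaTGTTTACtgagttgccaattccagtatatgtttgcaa
spo4 (chrII:3827050-3827116, plus strand): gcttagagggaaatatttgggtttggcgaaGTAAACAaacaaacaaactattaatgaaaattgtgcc
cut2 (chrII:2204265-2204331, minus strand): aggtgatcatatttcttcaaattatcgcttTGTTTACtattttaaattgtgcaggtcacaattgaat
klp5 (chrII:1712151-1712217, minus strand): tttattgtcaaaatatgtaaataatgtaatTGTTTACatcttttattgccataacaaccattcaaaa
gas4 (chrII:4206084-4206150, plus strand): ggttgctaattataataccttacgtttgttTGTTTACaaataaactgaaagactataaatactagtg
agn2 (chrII:934256-934322, minus strand): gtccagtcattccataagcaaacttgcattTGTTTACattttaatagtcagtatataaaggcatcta

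Spindle genes were mixed, with 10 of 23 higher, 6 lower and a median log2 of 0.08 (-0.45 by total counts). klp5+ had 72.4 and 72.8 RPKM at 5 h, against 23.8 and 27.4 RPKM at 4 h (log2 1.5 ± 0.14), whereas klp6+, which encodes the other subunit of the same kinesin-8, had 21.8 and 19.5 RPKM at 5 h, against 22.9 and 26.3 RPKM at 4 h (log2 -0.25 ± 0.16, not passed). The difference between the 2 genes was not tested. sad1+, which anchors the spindle pole in the nuclear envelope, rose by 1.43 ± 0.10, and the pole genes cut11+ and kms2+ by 0.54 ± 0.16 and 0.62 ± 0.15 (cut11+ not without replicate 2 at 4 h). The α-tubulin gene atb2+ rose (log2 0.88 ± 0.13), and the β-tubulin gene nda3+ had 534 and 540.0 RPKM at 5 h, against 536 and 482 RPKM at 4 h, with the stages overlapping. Genes for proteins that track or bundle microtubules fell: mal3+ (the EB1 homologue) had 31.1 and 31.9 RPKM at 5 h, against 84.4 and 92.3 RPKM at 4 h (log2 -1.49 ± 0.13), and ase1+ fell by 0.85 ± 0.18. The kinesin-5 gene cut7+ did not pass (0.35 ± 0.20).

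Forespore membrane genes showed no common direction. Of 15 tested, 6 were higher (a share near the 32.9% of all coding features), 1 lower and 8 passed neither way, with a median log2 of 0.32 (-0.20 by total counts). spo3+, a component of the membrane, had 47.5 and 55.9 RPKM at 5 h, against 6.48 and 6.79 RPKM at 4 h (log2 2.96 ± 0.13, adjusted p = 1.6e-16). meu14+, which marks the leading edge of the membrane, rose by 0.89 ± 0.14. spo13+, a spindle pole gene from which the membrane starts, had 62.9 and 57.0 RPKM at 5 h, against 54.7 and 57.1 RPKM at 4 h, and did not pass, and the syntaxin gene psy1+ did not either (0.13 ± 0.12). spo15+, of the same spindle pole structure, fell (log2 -0.57 ± 0.19), a call lost without replicate 2 of either stage. Septin genes differed. Of the forespore list, spn2+ and spn5+ rose (1.39 ± 0.12 and 1.16 ± 0.14). spn2+ is not confined to meiosis: its mean in vegetative wt was 55.2 RPKM, against 48.1 for spn3+, 26.8 for spn4+ and 19.5 for spn1+. Of the 3 septin genes listed apart as vegetative, 2 fell, spn1+ and spn4+ (-1.82 ± 0.14 and -1.83 ± 0.20). The third, spn3+, had 21.4 and 27.2 RPKM at 5 h, against 20.6 and 25.4 RPKM at 4 h, with the stages overlapping, and did not pass (0.08 ± 0.13). spn2+ had 562 and 654 RPKM at 5 h, against 231 and 234 RPKM at 4 h, and spn1+ had 6.94 and 6.86 RPKM at 5 h, against 22.1 and 26.8 RPKM at 4 h. spn6+ rose by 0.51 ± 0.17 with 97.0% of its length inside dcr1+ (-0.01 by total counts, and not called without replicate 1 of either stage), and spn7+ did not pass (0.32 ± 0.16). Among 13 actin and myosin genes, 5 rose, a share near the 32.9% of all coding features, and 3 fell (median -0.03). The formin gene for3+ had 43.6 and 35.4 RPKM at 5 h, against 5.88 and 5.46 RPKM at 4 h (log2 2.80 ± 0.20), and the myosin gene myo51+ rose by 1.39 ± 0.12, whereas the tropomyosin gene cdc8+ fell by 1.26 ± 0.11.

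Spore wall genes rose in 13 of 15 cases and none fell, with a median log2 of 1.71. mok14+ (an α-glucan synthase gene of the spore) had 633 and 596 RPKM at 5 h, against 28.2 and 18.8 RPKM at 4 h (log2 4.71 ± 0.19), and gas4+, a β-glucan transferase gene, had 380.5 and 324 RPKM at 5 h, against 22.9 and 22.0 RPKM at 4 h (log2 3.97 ± 0.18). agn2+, whose product later opens the ascus, had 1235 and 1224 RPKM at 5 h, against 139 and 108 RPKM at 4 h (log2 3.32 ± 0.14). bgs2+, the β-glucan synthase gene of the spore wall, rose 5.13-fold (91.4 and 82.8 RPKM at 5 h, against 18.3 and 15.6 RPKM at 4 h), and mok11+, mok13+ and eng2+ rose by between 1.24 and 2.64 on the log2 scale. isp3+, the surface protein of spores, had the highest level of the list by far: 45990.4 and 51102 RPKM at 5 h, against 18701 and 17181 RPKM at 4 h (log2 1.44 ± 0.37, adjusted p = 0.0017). mok12+ did not pass (4.86 and 5.35 RPKM at 5 h, against 4.63 and 3.76 RPKM at 4 h).

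Genes for the wall of growing cells were also higher, 9 of 12 rising and 1 falling with a median log2 of 0.86. bgs1+, which makes the primary septum in dividing cells, had 29.9 and 31.1 RPKM at 5 h, against 8.13 and 6.53 RPKM at 4 h (log2 2.06 ± 0.13), and gas1+ had 138 and 145 RPKM at 5 h, against 41.9 and 36.3 RPKM at 4 h (log2 1.86 ± 0.11). bgs3+, ags1+ and bgs4+ rose by 1.48 ± 0.12, 1.30 ± 0.12 and 0.69 ± 0.14, and gas2+ fell by 0.58 ± 0.13. Of the genes of cell separation after mitosis, taken as markers of vegetatively dividing cells, 6 of 9 rose and 1 fell (median 0.98). The septum glucanase gene eng1+ had 5.90 and 5.62 RPKM at 5 h, against 2.49 and 2.08 RPKM at 4 h. adg1+ did not pass (1.01 ± 0.44), and agn1+, whose product separates daughter cells, fell (-0.50 ± 0.15). The 9 genes summed to 7929 and 8243 RPKM at 5 h, against 3012 and 2432 RPKM at 4 h, nearly all of it adg2+ (7733 and 8049 RPKM at 5 h, against 2874 and 2314 RPKM at 4 h), and none was at 0. The part of vegetative cells in these results was not tested.

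Hexose transporter genes rose in 7 of 8 cases, with a median log2 of 1.48. ght6+ (chrIII:204733-206717, plus strand), a glucose and fructose transporter gene, had the largest rise among the coding features named by size of change: 1875 and 1889.8 RPKM at 5 h, against 16.7 and 7.35 RPKM at 4 h, a 156-fold higher level (log2 7.29 ± 0.29, adjusted p = 3.1e-17). An lncRNA feature just before it on the same strand, SPNCRNA.6744 (chrIII:203875-204597), had 307 and 281 RPKM at 5 h, against 2.26 and 0.564 RPKM at 4 h (log2 7.68 ± 0.35), and shares no base with ght6+. The other members were ght5+, the high-affinity glucose transporter, with 974 and 1158 RPKM at 5 h, against 387 and 295 RPKM at 4 h, and ght1+ to ght4+ and ght8+, which rose by between 1.23 and 2.53 on the log2 scale; reads could be shared among these related genes. ght7+ had at most 0.401 RPKM in any of the 4 libraries. All 5 trehalose and storage genes rose (median 1.07), among them tps1+, the trehalose synthase gene, with 1305 and 1380.5 RPKM at 5 h, against 554 and 454 RPKM at 4 h, and 9 of 13 stress genes rose (median 0.69). hsp16+ and the Hsp70 gene ssa1+ rose by 1.55 ± 0.21 and 1.4 ± 0.19, and the chaperone gene hsp104+ by 0.59 ± 0.18 (not without replicate 2 at 4 h).

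The 12 coding features with the largest rises and the 12 with the largest falls were picked by size, so their values are a description. Beside ght6+, mok14+ and gas4+, the largest rises were those of meu17+, annotated as a glucosidase gene, with 387 and 389.5 RPKM at 5 h, against 7.20 and 7.27 RPKM at 4 h (log2 5.75 ± 0.20), and of meu7+, an α-amylase gene, with 479 and 396 RPKM at 5 h, against 15.7 and 13.7 RPKM at 4 h (log2 4.90 ± 0.25). Enzymes of carbohydrates and a sugar transporter (ght6+, meu17+, meu7+, mok14+ and gas4+) thus stand among the 12. The others were mib1+ (3.86, overlapping mok14+ at its end), the transporter gene mug73+ (3.78), pxl1+ (3.70, a paxillin of the contractile ring in growing cells), meu34+ (3.58, a ubiquitin ligase gene), SPCC306.11 (3.68), SPBPB2B2.07c (4.41) and SPAC977.06 (3.55), of which the last pair had between 4.48 and 7.65 RPKM at 5 h. Of the 12 rises, 7 were in features that share over 50% of their length with another. The largest falls, beside genes described above, were those of tht1+ (-2.84 ± 0.14), needed for the fusion of nuclei at mating, with 7.18 and 5.12 RPKM at 5 h, against 39.8 and 48.1 RPKM at 4 h, and of the tubulin chaperone gene alp31+ (-2.87 ± 0.19), with 10.5 and 11.1 RPKM at 5 h, against 71.2 and 87.3 RPKM at 4 h. SPAC31A2.10, annotated as a Ran-binding protein, and lto1+, of ribosome biogenesis, fell by 2.72 ± 0.20 and 2.6 ± 0.34. Recombination and pairing genes made up most of the other falls (rec15+, rec8+, meu13+, sfr1+, mek1+, hop1+ and bqt1+).

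Genes of DNA replication had no single direction, 5 of 15 rising and 7 falling (median -0.28). spd1+, an inhibitor of nucleotide synthesis, had 81.8 and 109.9 RPKM at 5 h, against 412 and 399.9 RPKM at 4 h (log2 -2.08 ± 0.16), and the licensing genes cdt1+ and cdc18+ and the ribonucleotide reductase gene cdc22+ fell by 1.86 ± 0.29, 1.36 ± 0.19 and 1.19 ± 0.14. cig2+, an S-phase cyclin gene that is also expressed in the middle phase, had 109 and 117 RPKM at 5 h, against 48.5 and 47.2 RPKM at 4 h (log2 1.24 ± 0.09), and mcm6+ rose by 0.73 ± 0.11. Histone genes fell in 4 of 10 cases, a share near the 35.1% of all coding features. Of the others, 1 rose and 5 passed neither way (median -0.21). pht1+, the H2A.Z gene, was at 42.8 and 50.3 RPKM at 5 h, against 119.9 and 125 RPKM at 4 h. The histone H4 genes hhf1+ and hhf3+ both fell by 1.30 ± 0.17, but their coding sequences are nearly identical and their reads may be shared. Between 3 h and 4 h the median of the histone list had been far lower (-2.34). Ribosomal protein genes fell in 95 of 131 cases and none rose (median -0.75; by total counts 130 fell), and nucleolar genes of ribosome biogenesis fell in 8 of 15 (median -0.41), for example nop58+ (-0.71 ± 0.17) and fib1+ (-0.41 ± 0.14, not called without replicate 1 at 5 h). Pairs of ribosomal protein paralogues may share reads as well.

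Of 6745 lncRNA features tested, 1708 were higher and 1529 lower, but most overlap a coding gene. Among those with under 10% of their length shared, the largest rises after SPNCRNA.6744 were SPNCRNA.5337 (chrII:1747878-1748109, minus strand), with 19.1 and 32.7 RPKM at 5 h, against 0.845 and 1.76 RPKM at 4 h, SPNCRNA.3787 (log2 4.26 ± 0.52) and SPNCRNA.3379 (log2 3.44 ± 0.29). The largest fall was that of nam3, an lncRNA known to be bound by Mmi1 (chrII:4464625-4466286, minus strand), with 37.2 and 36.9 RPKM at 5 h, against 166 and 206 RPKM at 4 h (log2 -2.33 ± 0.14, adjusted p = 2.1e-13). SPNCRNA.6612 (called with all 4 libraries, and not without replicate 1 of either stage or replicate 2 at 5 h), SPNCRNA.4644 and SPNCRNA.854 fell by 1.69 ± 0.62, 1.58 ± 0.23 and 1.43 ± 0.31. These features were picked by size of change.

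**Figure D3:**
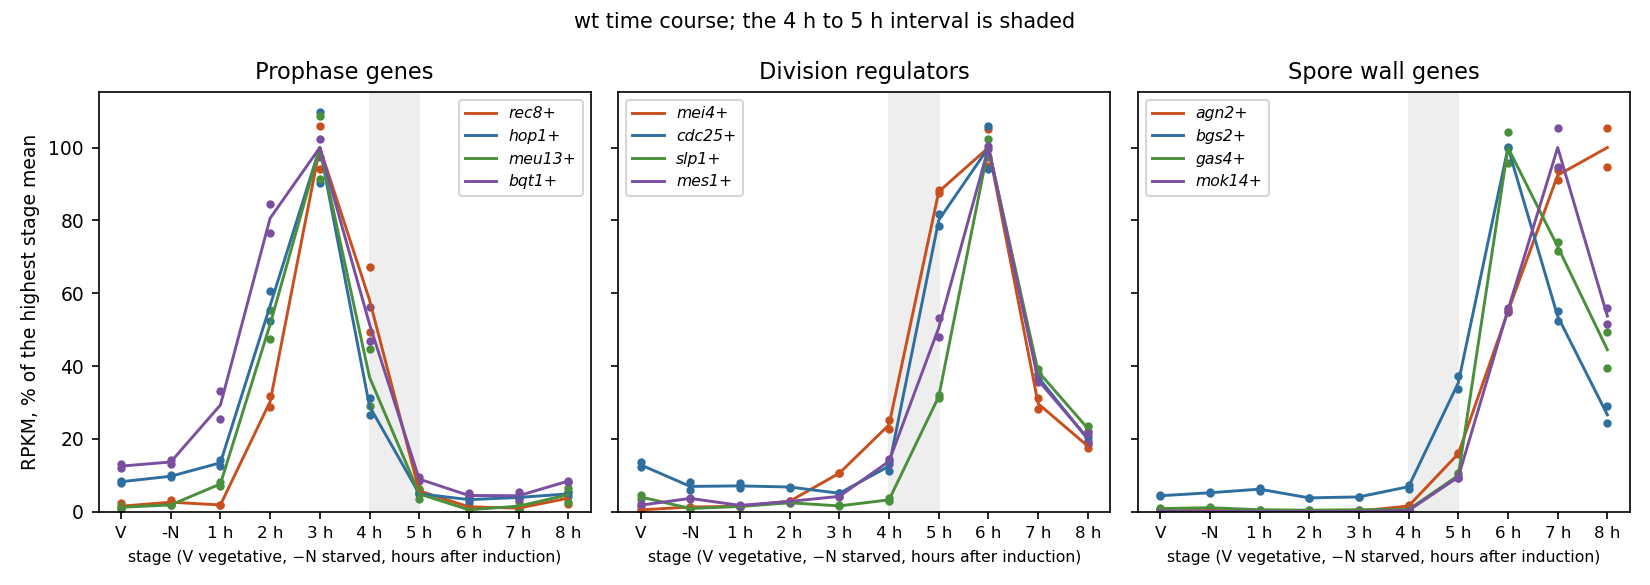
Level over the 10 wt stages as a percentage of the gene's highest stage mean, for 4 prophase genes, 4 division regulators and 4 spore wall genes; points are libraries, lines join means, and the 4 h to 5 h interval is shaded. The prophase genes are highest at 3 h, the regulators at 6 h, and agn2+ at 8 h.

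Most of these genes were already moving before 4 h and moved on after 5 h. The 542 coding features at least 2-fold higher at 5 h had a median log2 change of 0.61 between 3 h and 4 h, 1.35 between 4 h and 5 h, and 0.96 between 5 h and 6 h; these intervals share the libraries of the stage they have in common, and the features were chosen on the 4 h to 5 h change. Of the 542, 346 were also higher at 4 h than at 3 h and 431 were higher at 6 h than at 5 h, against 1100 and 1364 of all 5075 coding features. For the 710 at least 2-fold lower, the medians were -0.55, -1.29 and -0.94, and 415 were lower at 4 h than at 3 h, against 1108 of all 5075. Of the 542, 46.3% had their highest wt mean at 6 h and 31.6% at 7 h, against 16.0% and 11.7% of all coding features, and 5.54% at 5 h itself, close to the 5.64% of all. Of the 710, 33.1% had been highest at 3 h and 26.5% at 1 h, against 9.85% and 14.7% of all coding features. The rec8+ means at 2, 3, 4, 5 and 6 h were 11.9, 39.4, 22.9, 2.26 and 0.539 RPKM, so on the log2 scale most of its fall lay between 4 h and 6 h. Those of mei4+ at 3, 4, 5, 6 and 7 h were 20.7, 46.5, 171, 195 and 57.8 RPKM, and those of slp1+ 13.9, 28.1, 270.4, 854 and 329 RPKM, both with a maximum at 6 h. The spore wall list, in contrast, had medians of 1.18, 1.71 and 1.21 in the 3 intervals, and agn2+ was highest at 8 h (7699 RPKM).

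Kloopmut cells provide the same hours in other libraries, in which fewer features were called. The paper reports that its mamRNA and snR107 mutants all went through meiosis more slowly than wt. Equal hours need not be equal stages of meiosis, and the part of such a delay in the strain differences was not tested. In kloopmut, 788 coding features were higher at 5 h than at 4 h (15.5%) and 690 lower (13.6%). Of the 1669 coding features higher in wt, 662 were also higher in kloopmut, which is 39.7% of the wt list and 84.0% of the kloopmut list, and 54 were lower there. Of the 1782 lower in wt, 501 were lower in kloopmut (28.1% of the wt list and 72.6% of the kloopmut list) and 23 higher. The median change of the wt rises was 0.77 in wt and 0.26 in kloopmut, and that of the wt falls was -0.88 in wt and -0.26 in kloopmut (the features were chosen on the wt change, so these medians are a description). A test of the difference between the strains' changes (wt change minus kloopmut change) called 3419 of 12019 features (28.4%), 1684 with a higher and 1735 with a lower value in wt. Over all features 2513 changed in kloopmut, a count that was 1404 without replicate 2 of its 5 h libraries, 1571 without replicate 2 of its 4 h libraries and 5016 when only the stages compared were fitted. The count of strain differences was 2270 without replicate 2 of the wt 4 h libraries.

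**Figure D4:**
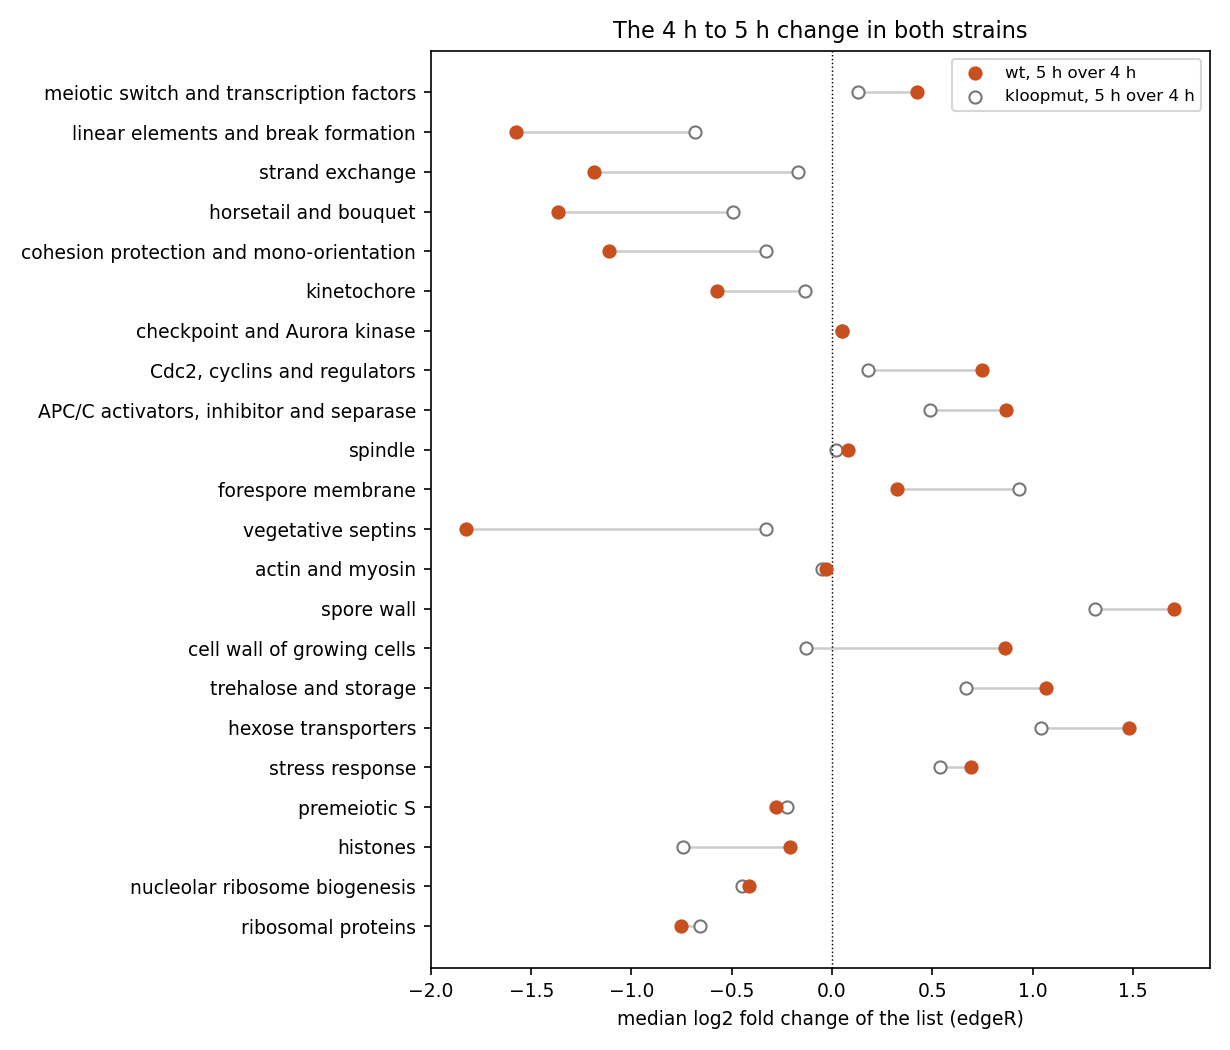
Median log2 fold change of each list between 5 h and 4 h, in wt (filled) and kloopmut (open). In the prophase lists and the Cdc2 list the wt median lies farther from 0, and in the forespore membrane list the kloopmut median does.

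The lists did not differ between strains in the same way. Over all 5075 coding features, the strain difference was called higher for 972 and lower for 1023. In the linear element list the median change was -1.58 in wt and -0.68 in kloopmut, with a lower strain difference called for 12 of 15 genes, and in the horsetail list it was -1.37 in wt and -0.49 in kloopmut, with 7 of 13. The growing cell wall list had a median of 0.86 in wt, against -0.13 in kloopmut, and 10 of 12 genes had a higher strain difference. Forespore membrane genes were the other way round, with 0.32 in wt, 0.93 in kloopmut and a lower difference in 8 of 15. Spore wall genes rose in both strains (1.71 in wt and 1.31 in kloopmut, 13 of 15 called in each), and ribosomal protein medians were -0.75 in wt and -0.66 in kloopmut, with 2 of 131 genes differing. In kloopmut the change of rec8+ did not pass (log2 -0.68 ± 0.28, edgeR adjusted p = 0.081), with 24.9 and 27.4 RPKM at 5 h, against 40.8 and 43.3 RPKM at 4 h. Its strain difference was -2.66 ± 0.42 (edgeR adjusted p = 3.3e-05). cdc25+ changed by 1.31 ± 0.12 in kloopmut, a difference of 1.37 ± 0.17 (adjusted p = 1.8e-06), and mei4+ by 1.30 ± 0.15, a difference of 0.58 ± 0.21 (adjusted p = 0.039). bgs2+ differed by 1.05 ± 0.15, spo6+ by 1.17 ± 0.27, crs1+ by -1.10 ± 0.35 and spn6+ by -0.70 ± 0.24. The difference did not pass for mes1+ (0.35 ± 0.15, edgeR adjusted p = 0.092), mfr1+ (0.83 ± 0.32, adjusted p = 0.051), ssm4+ (-0.78 ± 0.35), num1+ (-0.29 ± 0.21) or isp3+ (-0.21 ± 0.52). That test compares changes and not levels. The 5 h means of ssm4+ were 11.75 RPKM in kloopmut and 2.37 RPKM in wt, and those of num1+ were 36.8 and 13.9 RPKM. By RT-qPCR over the time course, the paper reports higher and wider ssm4+ expression in this mutant. Of the 542 features at least 2-fold higher in wt, 31.6% had their highest mean at 7 h and 6.09% at 8 h in wt, against 39.3% at 7 h and 38.8% at 8 h in kloopmut. Over all coding features the shares were 11.7% at 7 h and 6.40% at 8 h in wt, against 15.0% and 14.1% in kloopmut.

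Promoters were scanned over 300 bases, 250 before and 50 after the annotated start, on both strands. GTAAACA was found in 29.3% of promoters of coding features at least 2-fold higher at 5 h (158 of 540) and in 13.7% of those at least 2-fold lower (97 of 710), with 16.6% in all. Either core, GTAAACA or GTAAATA, was in 42.8% of the higher, 26.1% of the lower and 29.5% of all. At 4-fold or more, GTAAACA was in 30.6% of the higher (26 of 85) and 18.6% of the lower (11 of 59). Either core was then in 32 of 85 higher and 19 of 59 lower (32.2%), so the strongest falls were not poorer in these letters than all promoters. The MluI box ran the other way: 0.926% of the higher (5 of 540), 8.03% of the lower (57 of 710) and 22.0% of those at least 4-fold lower (13 of 59), with 3.27% in all. The core of the cAMP response element, TGACGT, which bZIP factors such as Atf21 bind, was in 10.2% of the higher, 4.23% of the lower and 5.92% of all, but at 4-fold or more the order was the other way, with 2 of 85 higher (2.35%) and 6 of 59 lower (10.2%). The TR box TTCTTTGTT, the site of Ste11, was in 2.59% of the higher, 1.55% of the lower and 1.99% of all. These shares describe letters in a window and do not sort the genes: 10 of 23 spindle promoters held GTAAACA although the list moved both ways, and the promoter of fkh2+, which fell, holds it too.

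**Figure D5:**
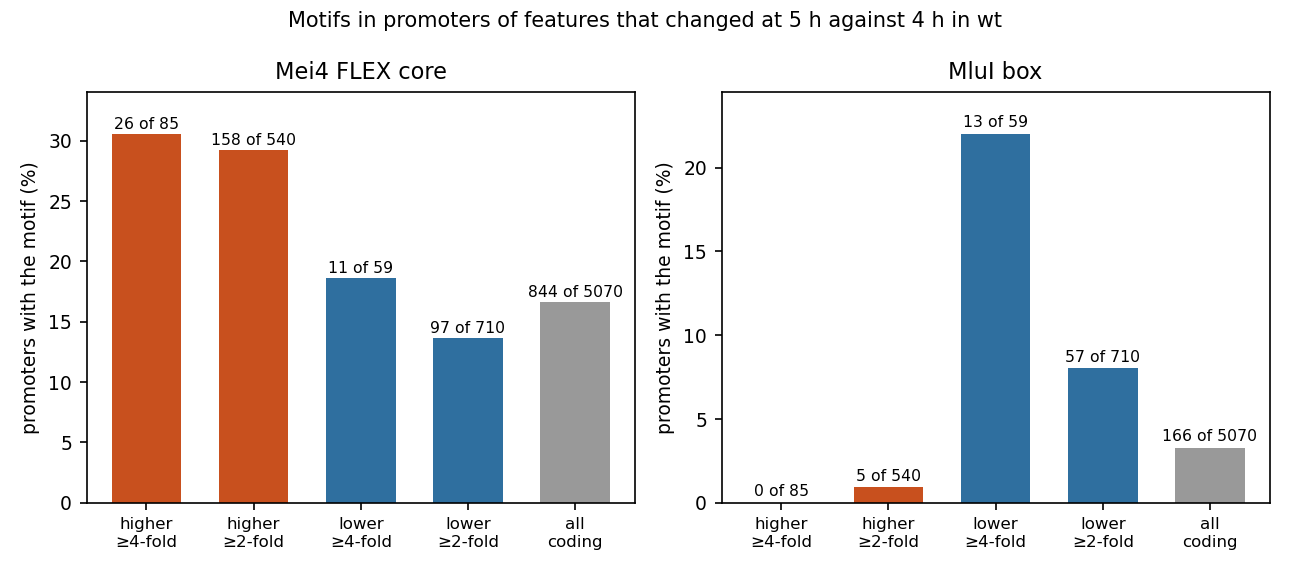
Share of promoters (%) that hold GTAAACA (left panel) or the MluI box ACGCGT (right panel), for coding features higher or lower at 5 h by at least 4-fold or 2-fold, and for all coding features. Numbers above bars are promoters with the motif; GTAAACA is most frequent in the higher groups (29.3% and 30.6%) and the MluI box in the lower ones (8.03% and 22.0%).

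The labelled cell type was checked against its markers. Genes of M (h-) cells were present: the M-factor gene mfm1+ had 87.7 and 113 RPKM at 5 h, against 90.8 and 111 RPKM at 4 h, and mfm2+ fell to 222 and 286 RPKM at 5 h, against 556 RPKM in both 4 h libraries (log2 -1.13 ± 0.37, not called without replicate 1 of the 5 h libraries). Of the 6 M genes 1 rose, 1 fell and 4 passed neither way. The P-factor gene map2+, which defines P cells, had at most 0.861 RPKM in any of the 4 libraries, and map1+, a regulator gene of P-specific transcription, had 1.89 and 2.34 RPKM at 5 h, against 6.61 and 8.02 RPKM at 4 h. map3+ had between 11.6 and 23.4 RPKM in these libraries, but 99.8% of its feature overlaps his6+. The M list summed to 387 and 492.9 RPKM at 5 h, against 730.2 and 752.8 RPKM at 4 h, and the P list to 16.7 and 14.8 RPKM at 5 h, against 28.2 and 32.2 RPKM at 4 h.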

How the data were processed

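The 4 wt libraries compared belong to a series of 40 (2 strains, 10 stages, 2 replicates each), grouped by their labels. The authors trimmed reads with fastp 0.23.1, aligned them with STAR 2.6.1d and counted them per annotated feature with featureCounts of Subread 2.0.6, and deposited raw counts, neither normalized nor pooled; which genome and annotation release was used, how strand was set and how multi-mapping reads were handled are not given in the sources used here. Names in the header were moved by 1 place, because an empty cell had shifted them. Of 12684 features, 12594 have the start and end of the RefSeq annotation of ASM294v3, which gave symbols and sequences.

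Counts were fitted with edgeR 4.0.16 in R 4.3.3: filterByExpr kept 12019 features and left out 665, libraries were scaled by TMM, and 1 quasi-likelihood fit held a mean for each of 20 groups (20 residual degrees of freedom, 7.56 prior). F tests were two-sided, and adjusted p-values are Benjamini-Hochberg values over all features tested, with a threshold of 0.05. The SE is the absolute log2 fold change divided by the square root of F. RPKM use edgeR's TMM-scaled library sizes and the deposited lengths. Total counts ranged from 22889781 to 35440184, and 3 counts, taken as the floor of a library, are 0.131 CPM or less; intervals and floors would cover counting error only. Replicates correlated at 0.988 (5 h) and 0.990 (4 h) over log2 values. Deviations of same-numbered 5 h and 4 h libraries did not go together (r = 0.039), so the numbers were not used as pairs.

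The members and the 25 gene lists were chosen with earlier results of these data known. Genes named by size are the 12 coding features with the largest rise and the 12 with the largest fall, and the 4 lncRNAs each way with under 10% of their length shared, among features past the threshold, of at least 5 RPKM at either stage, whose 4 differences between libraries had 1 sign; of the lists, mainly the members that moved most and those that define a list were named. Alternatives were total-count scaling, RLE factors, other filters, DESeq2 1.42.0, limma 3.58.1 (voom), a fit of only the stages compared, a replicate block, subsets of features and leaving out each library. The fit was tested on simulated counts in which a small set of features changed, in wt 5 h only. That setting cannot test the scaling, on which the balance of rises and falls depends here. Results for a few genes are not reported here. The list entries sme2 and spo1 were not found by name.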

Additional observations from a re-analysis of the deposited data

Results flagged for a closer look

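The change between 5 h and 4 h differed between the strains, by the interaction term of the edgeR fit, in 3419 of 12019 features. Among the genes for which this difference was chosen to be named, it passed for 7. The wt change exceeded the kloopmut change for mei4+ (0.58, 1.88 in wt and 1.30 in kloopmut), spo6+ (1.17, 1.17 in wt and 0.00 in kloopmut), cdc25+ (1.37, 2.67 in wt and 1.31 in kloopmut) and bgs2+ (1.05, 2.36 in wt and 1.31 in kloopmut). It was below the kloopmut change for rec8+ (-2.66, -3.35 in wt and -0.68 in kloopmut), crs1+ (-1.10, -1.27 in wt and -0.17 in kloopmut) and spn6+ (-0.70, 0.51 in wt and 1.21 in kloopmut). spo6+, crs1+ and spn6+ share part of their length with another coding gene, so the difference may belong to the partner.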

How the results depend on the processing

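The balance of rises and falls moved most with the scaling, and list medians changed sign under several settings. Features higher and lower in wt numbered 3395 and 3335, and with total-count scaling 1370 and 5837. With protein-coding features only they were 1722 and 1825, with features that share under 10% of their length 283 and 303, and with a change of at least 2-fold 1308 and 1525. The other tools and filters moved them to between 3168 and 3596 (higher) and between 3138 and 3657 (lower). Leaving out 1 library gave between 2430 and 3128 higher and between 2748 and 3570 lower. Features changed in kloopmut numbered 2513. The count was 5016 with only the stages compared, 250 among features of low overlap and 497 at 2-fold or more, and between 1404 and 1690 without 1 kloopmut library. Strain differences numbered 3419, against 2193 among protein-coding features only, 295 among features of low overlap and 1398 at 2-fold or more, and between 2270 and 3211 without 1 library.

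With total-count scaling the medians of the switch (-0.10), checkpoint (-0.47), spindle (-0.45) and forespore (-0.20) lists turned negative. Among features of low overlap, medians turned for P-cell (0.70), switch (-0.69), checkpoint (-0.89), kinetochore (0.91) and actin (0.13) genes, each on few members. The checkpoint median was -0.0043 with a stricter filter. Without 1 library, medians ranged between -0.34 and 0.019 for M-cell, -0.17 and 0.24 for checkpoint, -0.055 and 0.10 for spindle, and -0.062 and 0.065 for actin genes. Genes that turned with total-count scaling were rec14+ (-0.021), dhc1+ (-0.31), bqt3+ (-0.011), bub1+ (-0.027), rad21+ (-0.25), cdc2+ (-0.16), nda3+ (-0.45), psy1+ (-0.40), spn6+ (-0.010) and spn3+ (-0.46); dhc1+, nda3+, psy1+ and spn3+ were not called to begin with. Calls lost when 1 library was left out were those of bqt2+, rad21+, bub1+, cdc2+, cut11+, duo1+, fib1+, gar2+, hsp9+, hsp104+, mfm2+, sgo1+, spc7+, spn6+, spo15+ and SPNCRNA.6612. The cause was not tested.

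With the replicate block, 3531 features were higher and 3467 lower in wt, 2827 changed in kloopmut and 3717 differed between strains. Each count was above that of the main fit. The labels do not say whether same-numbered libraries are pairs, so which fit matches the design is not known. Depth limits the values of low genes such as map2+ and ght7+, for which no change was detectable.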

Other observations

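The wtf genes, a family of meiotic drivers in fission yeast that encode poisons and antidotes for spores, were not among the lists and were looked at after their values were seen. Of 16 features tested, 13 rose at 5 h, none fell and 3 passed neither way, with a median log2 fold change of 1.00 (0.48 by total counts). In kloopmut 11 of the 16 rose, with a median of 0.74. The largest wt values were those of wtf23+ (3.08), wtf13+ (3.06), wtf19+ (2.92) and wtf4+ (2.91). Several members are near-identical copies, so the reads of a member may come from another. The list medians of the neighbouring intervals, which share libraries with this one, were 1.29 between 3 h and 4 h and 1.23 between 5 h and 6 h.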
